A study of Homo sapiens with 9 samples.

Results

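The alpha and beta tubulins, the subunits from which microtubules are built, were examined in RNA-seq of HCT116 cells, an established human colorectal carcinoma line. The genes were taken as the rows of the deposited table whose Ensembl identifier corresponds to 1 of 10 tubulin symbols, 4 of alpha tubulin (TUBA1A, TUBA1B, TUBA1C and TUBA4A) and 6 of beta tubulin (TUBB, TUBB2A, TUBB2B, TUBB3, TUBB4B and TUBB6). They make up 10 of 15354 rows, and membership follows from the symbol, not from a measured value.

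An alpha and a beta chain pair into a heterodimer, and heterodimers add end to end into the wall of the microtubule. Humans carry several genes for each chain, called isotypes, which differ mostly in the last residues of the protein, the tail that projects from the microtubule surface and carries most of the enzymatic modifications. Dividing cells hold their tubulin supply steady in part by destroying tubulin messages on the ribosome when free heterodimer is in excess, a feedback called autoregulation.

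The cells had been transfected with 25 nM of a control siRNA or of either of 2 siRNAs (A and B in the labels) designed against SNHG5, a long non-coding RNA, with 3 libraries in each of the 3 groups. All values come from this cell line, and both siRNA groups were compared with the same control libraries. RNA was selected with oligo(dT) and read from 1 end over 50 bases. The deposited values are CPM, read counts scaled to a common library total, from which whole reads could be recovered, giving 15566530 to 23277549 reads in a library.

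SNHG5 itself went against the labels. Control libraries held 35.7, 26.3 and 28.6 CPM of it. The siRNA A libraries held 63.9, 50.0 and 61.6 CPM, and the siRNA B libraries 47.8, 47.7 and 45.2 CPM. The targeted RNA was therefore higher in every library labelled as treated than in any control, with log2 differences of 1.29 for siRNA A (limma, adjusted p = 1.86e-05) and 0.83 for siRNA B (0.00059), and what follows describes the groups as labelled. Of its annotated exon bases 13.2% are shared with 2 other genes of the same strand, so some reads counted there may belong to them. The cells carried the markers of their line, with 7 of 7 colorectal epithelial genes in the table and 6 of them at or above 1 CPM in every library, whose summed level was 1582 to 1653 CPM in control, 2077 to 2437 CPM in siRNA A and 1768 to 1909 CPM in siRNA B libraries. Of the fibroblast markers 3 of 5 had rows, summing to 18.5 to 19.7, 9.44 to 12.4 and 8.59 to 9.45 CPM in the same order. Of 4 leukocyte markers only CD14 had a row, at no more than 0.556 CPM, and of 5 neuronal markers SYP and MAP2 had rows, summing to between 3.09 and 6.79 CPM over all libraries.

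The start of the coding sequence is shown first, since the first residues of a growing tubulin chain are what the autoregulation machinery, led by the recognition factor TTC5, binds. The first 30 coding bases of 8 tubulins are given below from the start codon on, with the first 12, which encode those residues, in capitals (GRCh37 reference, GENCODE annotation, coding strand). TUBA1A and TUBA1C have the same 30 bases as TUBA1B.
TUBA1B: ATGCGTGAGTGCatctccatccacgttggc
TUBA4A: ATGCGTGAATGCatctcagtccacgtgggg
TUBB: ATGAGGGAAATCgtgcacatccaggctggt
TUBB4B: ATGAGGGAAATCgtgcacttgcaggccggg
TUBB2A: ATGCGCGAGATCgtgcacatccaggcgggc
TUBB2B: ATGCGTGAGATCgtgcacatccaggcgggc
TUBB3: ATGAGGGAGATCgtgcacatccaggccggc
TUBB6: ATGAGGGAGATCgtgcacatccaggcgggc
The 10 genes use 6 distinct openings of 12 bases. Among 19634 genes with an annotated start codon, 12 genes (0.0611%) begin with any of them, and all 12 are tubulins, the other two being TUBB8 and TUBB8B.

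The other end of the coding sequence sets the isotypes apart, and is shown for TUBA1C and TUBA4A because the last residue of alpha tubulin is a known site of modification. In most alpha tubulins the final tyrosine is removed by vasohibin with its partner SVBP and put back by tubulin tyrosine ligase (TTL). The last 30 coding bases are printed with the last sense codon in capitals, followed by the stop codon.
TUBA1C: gacggagaggatgagggtgaagagTATtaa
TUBA4A: tatgaggacgaggatgagggagaaGAAtaa
TUBA1C ends in a tyrosine codon, whereas TUBA4A ends in a glutamate codon, so that the encoded chain lacks the final tyrosine.

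How alike the genes are also decides how well a read of 50 bases can be assigned. Over the coding bases TUBB2A and TUBB2B are 98.1% identical, TUBA1A and TUBA1B 97.2%, and TUBA1B and TUBA1C 96.8%, whereas TUBA4A is 84.4% to 85.7% identical to the other alpha genes and TUBB 84.4% to TUBB4B. Of all windows of 50 bases in the main transcript, 63.6% for TUBB2A, 62.7% for TUBA1B, 54.9% for TUBB2B and 49.3% for TUBA1A also occur elsewhere in the genome or in another transcript. That share is 27.4% for TUBA1C, 23.4% for TUBB, 11.2% for TUBB4B, 9.23% for TUBB3, 1.09% for TUBB6 and 0% for TUBA4A. Differences among TUBA1A, TUBA1B and TUBA1C, and the level of TUBB2A, are uncertain to that extent, because it is not stated how reads with several matches were counted.

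**Figure D1:**
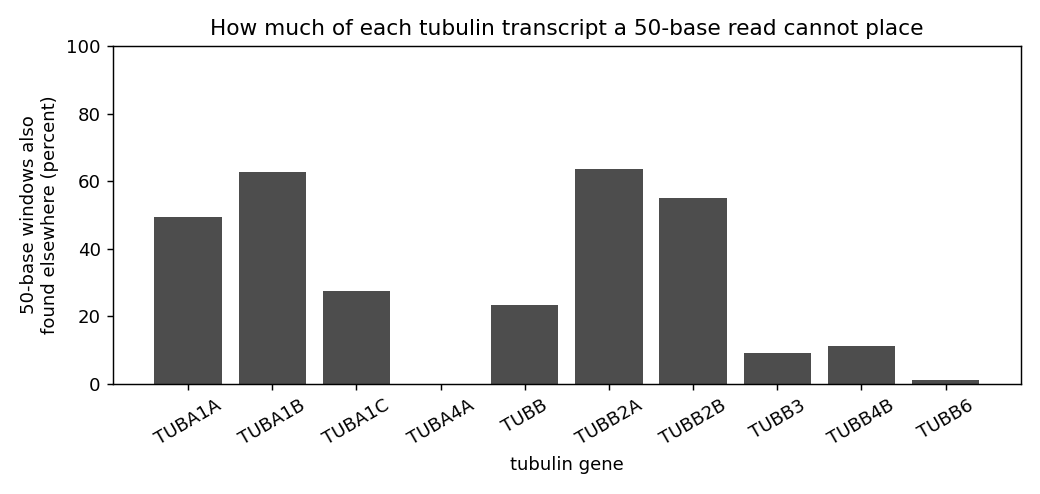
Share of 50-base windows of each tubulin's main transcript that also occur elsewhere in the genome or in another transcript (bars, percent; 10 genes). TUBB2A (63.6%) and TUBA1B (62.7%) stand highest, and TUBA4A has none.

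The loci are scattered over several chromosomes (GRCh37). TUBA1B (ENSG00000123416, chr12:49521565-49525180, minus strand), TUBA1A (ENSG00000167552, chr12:49578469-49582863, minus strand) and TUBA1C (ENSG00000167553, chr12:49582519-49668383, plus strand) lie close together, and TUBA4A (ENSG00000127824) is at chr2:220114432-220142624 on the minus strand. TUBB (ENSG00000196230) lies at chr6:30685212-30693315 on the plus strand, and TUBB4B (ENSG00000188229) at chr9:140135739-140138159, also on the plus strand. TUBB2A (ENSG00000137267, chr6:3153731-3157778) and its near copy TUBB2B (ENSG00000137285, chr6:3223558-3231964) are neighbours on the minus strand. TUBB3 (ENSG00000258947, chr16:89987800-90005169) and TUBB6 (ENSG00000176014, chr18:12307668-12344319) are both on the plus strand. Each main transcript has 4 exons. Exons of several genes overlap those of a gene on the opposite strand, over 1182 bases for TUBA1B (TUBA1B-AS1), 666 for TUBA1C, 628 for TUBA4A (STK16), 538 for TUBB, 124 for TUBB4B (FAM166A) and 104 between TUBA1A and TUBA1C, and a read-through gene on the same strand shares 1584 exon bases with TUBB3. Whether reads were counted by strand is not given in the sources used here, so reads of these stretches cannot be told apart.

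Per kilobase of main transcript, TUBB was the most abundant tubulin message in control libraries, at 745 ± 39.9 CPM per kb (SD, n = 3). TUBB4B followed at 392 ± 4.54, TUBA1B at 287 ± 14.3, TUBA1C at 113 ± 3.01, TUBB6 at 91.1 ± 1.76 and TUBA4A at 18.5 ± 1.11 CPM per kb, with no overlap between neighbours in that order. At the low end TUBB2A stood at 8.90 ± 0.826, TUBA1A at 7.76 ± 1.04 and TUBB3 at 3.29 ± 0.408 CPM per kb, and the libraries of TUBB2A and TUBA1A overlapped. This order rests on the length used. When only windows found nowhere else counted as length, TUBA1B stood at 794 ± 39.6 CPM per kb, above TUBB4B at 456 ± 5.28 and below TUBB at 991 ± 53.1, and TUBB2A at 25.2 ± 2.34, above TUBA4A at 19.0 ± 1.14. The 10 genes spanned from the main isotypes of dividing cells to TUBB3, an isotype best known from neurons, which was covered by 31 to 120 reads in a library. TUBB2B was in effect not detected, with 0 reads in 8 libraries and 1 read in siRNA A replicate 3, where 3 reads, the limit that a count of 0 allows, correspond to 0.129 to 0.193 CPM. It was not tested, and it is the only 1 of the 10 genes that did not pass the filter of 1 CPM in at least 3 libraries.

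**Figure D2:**
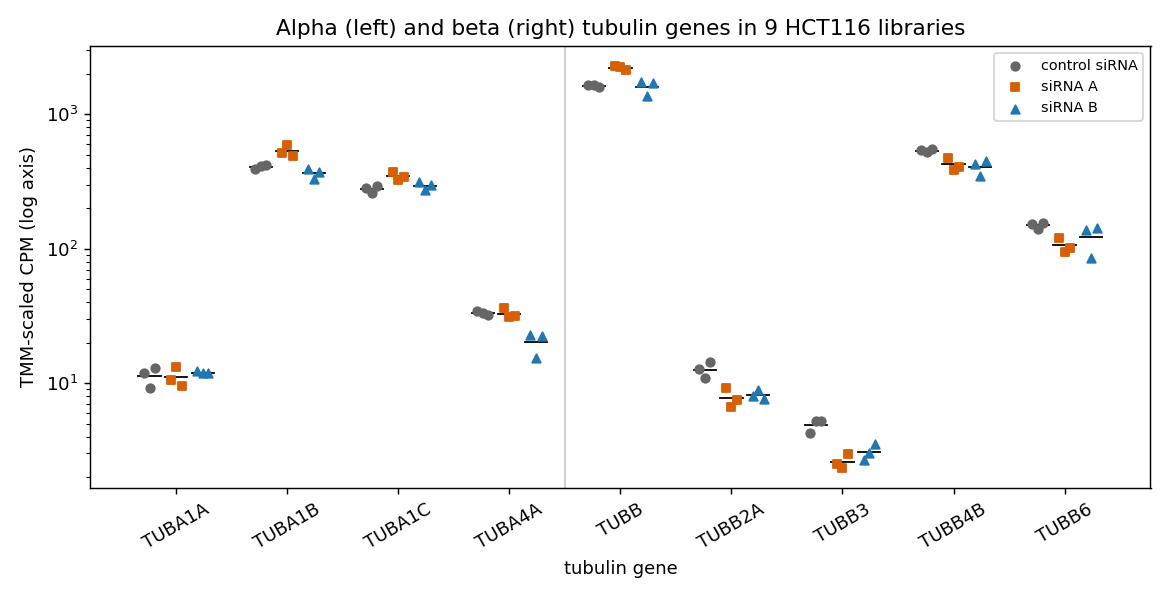
TMM-scaled CPM (log axis) of the 9 tubulin genes tested, by library, with 3 points and a black line at the mean for control siRNA, siRNA A and siRNA B; TUBB2B, at 0 or 1 read, is not drawn. TUBB4B, TUBB2A and TUBB3 lie lower in both siRNA groups than in every control library, TUBA4A only in siRNA B libraries.

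With siRNA A, the tubulins split: 3 of 9 tested rose and 4 fell against control (limma on log2(CPM + 1) after TMM scaling, adjusted p under 0.05 over 13893 genes), in a comparison where 23.9% of all genes tested were called higher and 27.6% lower. TUBB, TUBA1B and TUBA1C rose, and TUBB2A, TUBB3, TUBB4B and TUBB6, all beta isotypes, fell. The rises depended on the scaling, since with library totals alone 0 tubulins were higher (background 9.05%) and 5 lower (background 47%), with TUBA1A as the added call. TMM factors were 1.10 to 1.19 in control, 0.850 to 0.915 in siRNA A and 0.948 to 1.03 in siRNA B libraries, and totals alone moved the median of all genes from -0.02 to -0.34 (siRNA A) and from 0.00 to -0.18 (siRNA B) on the log2 scale. The median over the 9 tubulins was -0.04 under TMM and -0.38 under totals alone, close to the median of all genes under either.

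With siRNA B, 0 of 9 tubulins rose and 4 fell, where 15.6% of all genes tested were called higher and 18.3% lower. TUBB2A, TUBB3 and TUBB4B fell as with siRNA A, in a comparison that uses the same controls, and the fourth was TUBA4A. No tubulin was higher at an unadjusted p under 0.05, in edgeR or in DESeq2 either. With library totals alone 6 were lower (background 29.7%) and 0 higher (background 6.9%), TUBA1B and TUBB6 being the added calls. The median over the 9 genes was -0.33 against 0.00 for all genes.

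Directly compared, siRNA A and siRNA B libraries differed in 3 tubulins, TUBB, TUBA1B and TUBA4A, each higher in siRNA A, where 17.6% of all genes tested were called higher in siRNA A and 19.5% lower. No tubulin was lower in siRNA A by limma, edgeR or DESeq2, or at an unadjusted p under 0.05. The groups did not overlap on the TMM scale for 7 of 9 tubulins between siRNA A and control (background 59.5%), for 4 between siRNA B and control (background 47.6%) and for 4 between both siRNAs (background 47.6%). These are bulk RNA values, in which fewer cells with a message and less message in each cell cannot be told apart.

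**Figure D3:**
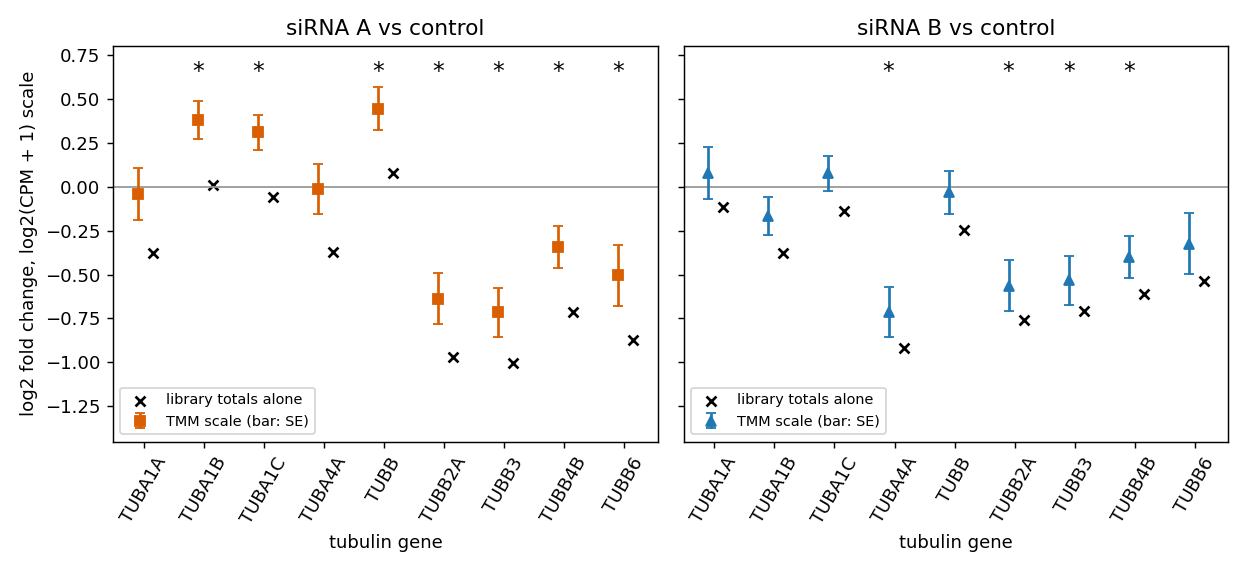
Log2 fold change against control for 9 tubulins with siRNA A (left) and siRNA B (right); coloured points with bars give the TMM-scaled value ± SE (3 libraries a group), crosses the value with library totals alone, and stars mark adjusted p under 0.05 on the TMM scale. The siRNA A rises of TUBB, TUBA1B and TUBA1C (0.44, 0.38 and 0.31) shrink to 0.08, 0.01 and -0.06 with totals alone, while the 4 lower beta isotypes stay below 0 under both scalings.

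Among the alpha genes, TUBA1B is the main isotype of most dividing cells. Its deposited level was 447, 493 and 461 CPM in control libraries, 464, 499 and 449 CPM with siRNA A and 408, 312 and 362 CPM with siRNA B. On this scale the siRNA A libraries overlapped the control range, and all siRNA B libraries lay below it. After TMM scaling the mean rose from 408 ± 13.1 in control to 533 ± 49.4 CPM with siRNA A (log2 difference 0.38 ± 0.11 SE, limma adjusted p = 0.0111), a call that totals alone took away (0.01, adjusted p = 0.943). With siRNA B the mean was 364 ± 32.9 CPM (log2 difference -0.17, adjusted p = 0.255), which became a fall with totals alone (-0.38, adjusted p = 0.0223). Between both siRNAs the difference held under either scaling, at 0.55 ± 0.11 (adjusted p = 0.00232) and 0.39. The values of the antisense gene TUBA1B-AS1, whose exons overlap those of TUBA1B, moved alike. Its difference was 0.41 with siRNA A (adjusted p = 0.0722, or 0.0318 with the replicate block, in which libraries of the same number are matched across all 3 groups). Between both siRNAs it was 0.56 (adjusted p = 0.0263, up to 0.0738 with a library left out). The part of these values in the result was not tested.

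TUBA1C, the near copy of TUBA1B, stood at 324, 310 and 325 CPM in control, at 333, 277 and 312 CPM with siRNA A and at 323, 258 and 294 CPM with siRNA B. These deposited ranges overlapped in all 3 comparisons. On the TMM scale it was higher with siRNA A (0.31 ± 0.10, limma adjusted p = 0.0227), with the sign turning under totals alone (-0.06, adjusted p = 0.683), and it no longer passed without control replicate 2 (adjusted p = 0.0829) or siRNA A replicate 1 (adjusted p = 0.0911). No difference with siRNA B passed the test (0.08, adjusted p = 0.598).

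TUBA1A, an isotype most abundant in the developing nervous system, was a minor message here. Its level was 13.5, 11.03 and 14.4 CPM in control, 9.36, 11.1 and 8.72 CPM with siRNA A and 12.6, 11.3 and 11.6 CPM with siRNA B. No comparison passed on the TMM scale (siRNA A at -0.04, limma adjusted p = 0.835, siRNA B at 0.08, adjusted p = 0.716), and totals alone gave a fall with siRNA A (-0.38, adjusted p = 0.0359).

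TUBA4A, the alpha isotype without the final tyrosine codon, was the alpha gene that fell. It stood at 38.8, 39.7 and 35.4 CPM in control, at 32.2, 26.6 and 28.8 CPM with siRNA A and at 23.7, 14.4 and 21.8 CPM with siRNA B. Every siRNA B library lay below every other library on this scale. After TMM scaling the mean was 33.2 ± 1.02 CPM in control, 32.9 ± 2.67 in siRNA A and 20.1 ± 4.24 in siRNA B libraries, a fall of 0.71 ± 0.14 on the log2 scale with siRNA B (limma adjusted p = 0.00282). The difference between both siRNAs was of the same size (0.70 ± 0.14, adjusted p = 0.00299). With siRNA A the TMM value was -0.01 (adjusted p = 0.948), and totals alone gave -0.37 without passing. STK16, which overlaps TUBA4A on the opposite strand, was also lower with siRNA B (-0.51, adjusted p = 0.0102) and with siRNA A (-0.44, adjusted p = 0.0128, or 0.0574 without control replicate 1), and its part in the TUBA4A value was not tested.

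TUBB, the main beta isotype of dividing cells, carried most beta tubulin reads. It stood at 1864, 1977 and 1777 CPM in control, at 2045, 1910 and 1958 CPM with siRNA A and at 1813, 1301 and 1670 CPM with siRNA B. The siRNA A and control ranges overlapped as deposited, and siRNA B replicate 2 was the lowest library of all. After TMM scaling the control mean of 1636 ± 24.4 CPM rose to 2225 ± 75.5 CPM with siRNA A (0.44 ± 0.12, limma adjusted p = 0.0103), while totals alone left 0.08 (adjusted p = 0.656). With siRNA B it was 1609 ± 207 CPM (-0.03, adjusted p = 0.865). The difference between both siRNAs, 0.48 ± 0.12 (adjusted p = 0.0106), did not pass with totals alone (0.32, adjusted p = 0.0768).

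TUBB4B, the other broadly expressed beta isotype and a component of cilia and flagella, moved the other way. It was tight in control libraries at 613, 621 and 606 CPM, and lower with siRNA A (426, 330 and 372 CPM) and with siRNA B (442, 329 and 441 CPM). Every siRNA library lay below every control on this deposited scale. After TMM scaling the highest siRNA library, siRNA A replicate 1 at 476.4 CPM, lay closer to the lowest control, at 520.5 CPM. The log2 difference on the TMM scale was -0.34 ± 0.12 with siRNA A (limma adjusted p = 0.032) and for siRNA B -0.40 ± 0.12 (adjusted p = 0.0239), and -0.71 and -0.61 with totals alone. The siRNA A call went without control replicate 1 (adjusted p = 0.0652) or 3 (0.0897) or siRNA A replicate 2 (0.101) or 3 (0.0884). For siRNA B it went without control replicate 3 (adjusted p = 0.0737) or siRNA B replicate 2 (0.0749). Both siRNAs gave nearly the same TMM level, 424 ± 46.6 and 408 ± 54.0 CPM, and the difference between them did not pass (0.06 ± 0.12, adjusted p = 0.747).

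TUBB6, a broadly expressed beta isotype with a divergent tail, stood at 175, 168 and 171 CPM in control libraries. It was at 108, 80.0 and 93.2 CPM with siRNA A and at 143, 81.3 and 140 CPM with siRNA B. In siRNA B, replicate 2 lay among the siRNA A values and the other two libraries between both groups. The fall with siRNA A was 0.51 ± 0.17 on the log2 scale (limma adjusted p = 0.0285), lost without control replicate 1 (adjusted p = 0.06) or 3 (0.081) or siRNA A replicate 2 (0.0949) or 3 (0.0779). With siRNA B the value of -0.33 did not pass (adjusted p = 0.17), though it did with totals alone (-0.54, adjusted p = 0.0379). Without siRNA B replicate 2, TUBB6 was lower in siRNA A than in siRNA B libraries (-0.42, adjusted p = 0.018), against -0.18 (adjusted p = 0.438) with all libraries.

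TUBB2A and TUBB3 were the low beta isotypes that fell with both siRNAs. TUBB2A, prominent in brain, stood at 14.4, 13.1 and 15.7 CPM in control, at 8.18, 5.65 and 6.86 CPM with siRNA A and at 8.29, 8.45 and 7.48 CPM with siRNA B. No library of either siRNA group reached the lowest control. The log2 difference was -0.64 ± 0.14 with siRNA A (limma adjusted p = 0.00306) and for siRNA B -0.56 ± 0.14 (adjusted p = 0.0103), under the limit on assigning its reads given above. TUBB3 stood at 4.85, 6.21 and 5.79 CPM in control, at 2.23, 1.99 and 2.70 CPM with siRNA A and at 2.78, 2.88 and 3.48 CPM with siRNA B. Again all siRNA libraries lay below all controls. Its log2 difference was -0.72 ± 0.14 with siRNA A (adjusted p = 0.00134) and for siRNA B -0.53 ± 0.14 (adjusted p = 0.0127), the latter lost narrowly without control replicate 3 (adjusted p = 0.0502) or siRNA B replicate 1 (0.0509). At such levels the added count of 1 CPM shrinks the change, and with 0.1 CPM in its place TUBB3 gave -0.89 and -0.65. With totals alone both genes were lower still, at -0.971 and -1.001 with siRNA A.

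The make-up of the beta tubulin pool does not depend on the scaling between libraries. As a share of the summed CPM per kb of the 6 beta genes, TUBB took 59.9%, 61.2% and 58.9% in control libraries, 70.7%, 74.6% and 72.6% with siRNA A and 66.3%, 66.5% and 64.6% with siRNA B. The 3 groups were apart, in the order control, siRNA B, siRNA A, with means of 60.01 ± 1.14%, 65.8 ± 1.02% and 72.7 ± 1.95%. TUBB4B gave the opposite order, with 31.7%, 30.9% and 32.4% in control, 26.04%, 27.1% and 27.5% with siRNA B and 23.7%, 20.7% and 22.2% with siRNA A. TUBB6 took 7.35 ± 0.345% in control, 6.61 ± 0.912% with siRNA B and 4.61 ± 0.415% with siRNA A, and only its siRNA A libraries were apart from both other groups. The mean share of TUBB3 was 0.265% in control, 0.188% with siRNA B and 0.125% with siRNA A, and that of TUBB2A 0.720%, 0.531% and 0.393%. Thus TUBB took a larger part of the beta pool in every siRNA library than in any control, and the mean shares of the other 4 detected isotypes were smaller in both siRNA groups. The shares add up to the whole pool, so a larger TUBB share goes with smaller shares elsewhere, and these are not separate results. As deposited, TUBB itself overlapped control with siRNA A and had a lower mean with siRNA B (1594 against 1873 CPM).

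The alpha pool moved less. TUBA1B took 67.3 ± 1.59% of it in control, 69.2 ± 2.70% in siRNA A and 64.8 ± 0.383% in siRNA B libraries, and TUBA1C 26.6 ± 1.35%, 26.04 ± 2.53% and 30.3 ± 0.511%. For both genes the siRNA B libraries were apart from each other group, whereas siRNA A and control overlapped. TUBA4A took 4.35 ± 0.246% in control, 3.41 ± 0.326% in siRNA A and 2.82 ± 0.392% in siRNA B libraries, below control in every siRNA library. The summed level of beta over alpha messages was 2.91 ± 0.0761 per kb in control, 2.58 ± 0.164 in siRNA A and 2.81 ± 0.182 in siRNA B libraries. Only siRNA A was apart from control in this ratio, and no longer without division by length (3.197 against 2.998). The ratio itself leans on the length used, being 1.59 in control when only windows found nowhere else were counted as length. That length moved TUBB to 63.1%, 75.2% and 68.8% of beta (control, siRNA A, siRNA B) and left the 3 groups apart. Of 11 such measures the groups were apart in 7 between siRNA A and control, in 6 between siRNA B and control, and in 8 between both siRNAs. These measures depend on each other, since the alpha shares and the beta shares each add up to a whole. They have no background over all genes, and the TUBB2B share rests on at most 1 read. With 3 libraries against 3 no two-sided exact permutation p can lie below 0.10, so none could pass.

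Other tubulin genes were thinner. Of 12 listed, 6 had rows and all 6 were tested, and with siRNA A 3 fell (background 27.6%) and 0 rose (background 23.9%; 0 also by edgeR and DESeq2), with a median of -0.17, while with siRNA B 3 fell (background 18.3%) and 1 rose (background 15.6%), with a median of -0.13. The same backgrounds, those of all genes tested, apply to each list that follows. The gene that rose was the delta tubulin TUBD1 (0.51, limma adjusted p = 0.0235, named after its value was seen), which no longer passed with totals alone, or without replicate 2 or 3 of control or 1 or 3 of siRNA B. TUBG1, the gamma tubulin that nucleates microtubules at the centrosome, went from 78.5 to 88.8 CPM in control to 31.5 to 36.4 CPM with siRNA A and 53.6 to 60.4 CPM with siRNA B. Its log2 difference was -0.94 with siRNA A (limma adjusted p = 2.02e-05). With siRNA B it was -0.31 (adjusted p = 0.0277), which was lost when any library of control, siRNA B replicate 1 or siRNA B replicate 2 was left out (adjusted p up to 0.0744). The beta isotype TUBB4A fell with siRNA B (-0.74, adjusted p = 0.00137) and with siRNA A (-0.44, adjusted p = 0.0162, or 0.0722 without control replicate 3). TUBE1, the epsilon tubulin of centrioles, fell by 0.55 with siRNA B (adjusted p = 0.00521) and by 0.41 with siRNA A (adjusted p = 0.0142, or 0.0526 without control replicate 2).

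New tubulin chains are passed by prefoldin to the chaperonin CCT and then to the cofactors TBCA to TBCE, which assemble the heterodimer. With siRNA A, 8 of 8 CCT subunits rose (background 23.9%), with a median of 0.63 against -0.02 for all genes tested, and 0 fell in limma, edgeR or DESeq2. With totals alone 4 rose and the median was 0.26. Leaving out single libraries, 6 to 8 rose, with 6 without control replicate 2 or siRNA A replicate 1. With siRNA B, 3 rose (TCP1, CCT4 and CCT8) and 3 fell (CCT2, CCT3 and CCT6A), with a median of 0.25, and totals alone left 1 rise and 3 falls. Of these, CCT2, CCT4 and CCT6A are named after their values were seen. TCP1, the alpha subunit, was at 546 to 572 CPM in control and 713 to 810 CPM with siRNA A (0.79, limma adjusted p = 9.4e-05), and CCT8 rose by 0.75 (adjusted p = 0.000164). With siRNA B, TCP1 was higher by 0.35 (adjusted p = 0.0202, not passing in turn without replicate 2 or 3 of control or 1 or 3 of siRNA B, up to 0.0687) and CCT8 by 0.49 (adjusted p = 0.00437). CCT3 differed most between the siRNAs. It stood at 763 to 840 CPM in control and 782 to 813 CPM with siRNA A, but at 161 to 219 CPM with siRNA B, a fall of 1.85 on the log2 scale (adjusted p = 1.06e-06). With siRNA A it was 0.34 (adjusted p = 0.0223), turning to -0.03 with totals alone, and it failed the test without control replicate 2 or 3 or siRNA A replicate 1 or 2 (up to 0.0699).

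Of 6 prefoldin subunits, 4 rose (background 23.9%) and 1 fell (27.6%) with siRNA A (median 0.72), and 4 rose (15.6%) and 0 fell (18.3%) with siRNA B (median 0.35; 0 fell in edgeR and DESeq2 too). The rises with siRNA B came down to 2 without replicate 2 or 3 of control or 1 or 3 of siRNA B, and with totals alone. VBP1 was the subunit that fell with siRNA A (-0.38, limma adjusted p = 0.00377) and was higher with siRNA B (0.30, adjusted p = 0.0208), and PFDN6 rose with both (0.71 and 0.52), both named after their values were seen. PFDN5 rose by 0.89 with the former (limma adjusted p = 0.000274) and by 0.66 with the latter (0.00319). PFDN4 rose by 0.84 with siRNA A (adjusted p = 0.0021), and its value with siRNA B was 0.29 (adjusted p = 0.235). PFDN2 rose by 0.72 with siRNA A (adjusted p = 0.000581) and by 0.40 with siRNA B (adjusted p = 0.0273), which failed without replicate 2 (0.109) or 3 (0.0854) of control or replicate 1 (0.0711) or 3 (0.0985) of siRNA B. Of the 7 cofactor genes 6 were tested, of which 2 rose and 1 fell with siRNA A (median 0.31), and 1 rose and 1 fell with siRNA B (median 0.03). The member that fell was TBCD, a cofactor that holds beta tubulin during heterodimer assembly. It dropped from 115 to 133 CPM in control to 25.1 to 29.4 CPM with siRNA A and 29.99 to 39.7 CPM with siRNA B, by -1.80 (adjusted p = 1.63e-06) and -1.57 (adjusted p = 4.29e-06). TBCA, which binds free beta tubulin, rose by 0.79 and 0.71 (adjusted p = 0.00392 and 0.0117, the latter 0.0584 without control replicate 2), and TBCC rose by 0.74 with siRNA A (adjusted p = 0.00954) and was at 0.09 with siRNA B. The siRNA A libraries were widely spread for TBCC, at 22.1 to 40.09 CPM against 19.5 to 22.11 CPM in control, so the deposited ranges overlapped. The TBCA and TBCC calls with siRNA A did not pass with totals alone.

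Of the 3 genes that execute tubulin autoregulation (TTC5, SCAPER and CNOT11) none passed in either comparison with control in limma, edgeR or DESeq2, and only TTC5 with siRNA B had an unadjusted p under 0.05. TTC5, which recognises the opening residues shown above, stood at 20.3 to 24.2 CPM in control, 17.5 to 23.0 CPM with siRNA A (0.24, limma adjusted p = 0.165) and 13.5 to 16.0 CPM with siRNA B (-0.36, adjusted p = 0.0586). The siRNA A value turned to -0.12 with totals alone (limma adjusted p = 0.484), the scale of these CPM ranges. The siRNA B value lay near the threshold, and it passed with totals alone (-0.56, adjusted p = 0.006), without siRNA A replicate 1 (0.0469) or 2 (0.0416), and without siRNA B replicate 2 (0.0367). Blocking on the replicate number likewise brought the siRNA B value under 0.05 (limma adjusted p = 0.0223). TTC5 was higher in siRNA A than in siRNA B (0.60, adjusted p = 0.00533). SCAPER, an adaptor that links TTC5 to the CCR4-NOT deadenylase, varied widely between libraries (-0.49 and 0.19, adjusted p = 0.325 and 0.747), and CNOT11, the subunit it contacts, was at 0.08 and 0.07, the former turning to -0.28 with totals alone (adjusted p = 0.0393).

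Among 16 genes for enzymes that modify the tail or a lysine of tubulin, or for their partners, 1 rose (background 23.9%) and 8 fell (27.6%) with siRNA A (median -0.32), and 2 rose (15.6%) and 7 fell (18.3%) with siRNA B (median -0.34). Leaving out single libraries, 0 to 2 rose and 5 to 7 fell with siRNA B, 0 rising without control replicate 2, control replicate 3 or siRNA B replicate 1. The genes that rose were the vasohibin partner SVBP (0.64 and 0.51, limma adjusted p = 0.00523 and 0.0256) and, with siRNA B, the tail-trimming carboxypeptidase AGTPBP1 (0.35, adjusted p = 0.0401), named after their values were seen. TTL, the ligase that restores the tyrosine, fell with siRNA A (-0.35, adjusted p = 0.0216) and was at 0.01 with siRNA B (adjusted p = 0.964), and the acetyltransferase ATAT1 fell with both (-0.46 and -0.51). SIRT2 (-0.70 and -0.34), MATCAP1 (-0.75 and -0.33) and VASH1 (-0.30 and -0.46) also fell with both, and TTLL5 fell with siRNA B (-0.54). TTL, ATAT1 and these genes are likewise named after their values were seen. The largest fall was that of TTLL12, a member of the tyrosine ligase-like family, from 151 to 200 CPM in control to 30.2 to 37 CPM with siRNA A (-1.95, limma adjusted p = 1.57e-06) and 53.1 to 59.6 CPM with siRNA B (-1.36, adjusted p = 1.76e-05). VASH2, a tyrosine-removing vasohibin, fell by 0.85 and 0.88 (adjusted p = 0.000627 and 0.000943). TTLL11, a polyglutamylase at the edge of detection, fell by 0.78 with siRNA A (adjusted p = 0.000761), from 1.32 to 1.64 CPM in control to 0.196 to 0.385 CPM, and was at -0.35 with siRNA B (adjusted p = 0.0734). The siRNA B value passed with totals alone (-0.47, adjusted p = 0.0217) and without the filter on low values (-0.35, adjusted p = 0.0263). TTLL11 met the filter of 1 CPM in 3 libraries only through control, since siRNA B libraries stood at 0.612 to 0.902 CPM. Its fall with siRNA A, 1 of the 8 counted, therefore depends on the group that admitted it and is a description only.

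Of 11 genes of the gamma-tubulin ring complex, the template for new microtubules, 10 were tested, of which 1 rose (background 23.9%) and 2 fell (27.6%) with siRNA A (median 0.12), and 0 rose (15.6%) and 1 fell (18.3%) with siRNA B (median -0.01; 1 was higher at an unadjusted p under 0.05, and 0 in edgeR and DESeq2). These counts do not exceed the background. With the replicate block 3 fell with siRNA A. Besides TUBG1, the subunit TUBGCP6 fell with siRNA A (-0.66, limma adjusted p = 0.00042). TUBGCP4 rose by 0.38 (adjusted p = 0.0167), which totals alone reduced to 0.02 and which failed without replicate 3 of control or replicate 1 or 3 of siRNA A (up to 0.0754).

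Among 16 microtubule stabilisers and plus-end proteins, 4 rose (background 23.9%) and 4 fell (27.6%) with siRNA A (median 0.10), and 1 rose (15.6%) and 5 fell (18.3%) with siRNA B (median -0.10). With siRNA A both counts are near the background. Without control replicate 3 the falls with siRNA A came down to 2, and without control replicate 1 the rises with siRNA B came to 2. Seen only after the fact, the other members called with siRNA A were MAP1B and MAP7, which rose, and CKAP5, MAP1S and MAPRE3, which fell, and with siRNA B CAMSAP1, CLASP2, MAP4 and MAPRE2, which fell. MAPRE1, the end-binding protein that tracks growing plus ends, moved in opposite directions, from 195 to 211 CPM in control up to 282 to 339 CPM with siRNA A (0.95, limma adjusted p = 4.5e-05) and down to 80.7 to 104 CPM with siRNA B (-0.94, adjusted p = 9.29e-05). The minus-end binder CAMSAP2 rose with both, by 1.01 and 1.04 (adjusted p = 2.31e-05 and 4.03e-05). Its relative CAMSAP3 fell with siRNA A (-1.05, adjusted p = 3.76e-05) and was at -0.30 with siRNA B (adjusted p = 0.0697). The siRNA B value passed with totals alone (-0.50, adjusted p = 0.00632), without siRNA B replicate 2 (-0.385, adjusted p = 0.031) and with the replicate block (0.0485).

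Of 11 destabilising and severing genes 10 were tested, of which 2 rose (background 23.9%) and 5 fell (27.6%) with siRNA A (median -0.22), and 3 rose (15.6%) and 4 fell (18.3%) with siRNA B (median -0.13). The rises with siRNA B came down to 1 without control replicate 1 or 2, and the falls to 2 without control replicate 2. Stathmin (STMN1), which sequesters heterodimers, was among the rises with siRNA B (0.54, limma adjusted p = 0.00434) and was at 0.08 with siRNA A. It is named after its values were seen, as are KATNA1, FIGNL1, KATNAL1 and STMN3, of which the first pair rose and the latter fell with both siRNAs, and KIF2C, which fell with siRNA A. KIF18A, a kinesin that shortens spindle microtubules, fell by 0.60 with siRNA A (limma adjusted p = 0.00551). SPAST, the severing enzyme spastin, fell by 0.54 with siRNA B (adjusted p = 0.0231), which failed without replicate 2 (0.087) or 3 (0.0676) of control or replicate 1 (0.0652) or 3 (0.0881) of siRNA B. Of the genes named from these lists, PFDN5 shares 37.3% of its exon bases with other genes, TUBGCP4 34.3%, TUBB4A 17.1% and TCP1 12.4%, and TTC5, TBCD, TUBGCP6, TUBG1 and CCT8 share 10% or less. Part of these bases lies in genes of the same strand (1048 for PFDN5, 740 for TTC5 and 140 in SNORA29 for TCP1), where the strand of a read would not tell the genes apart.

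**Figure D4:**
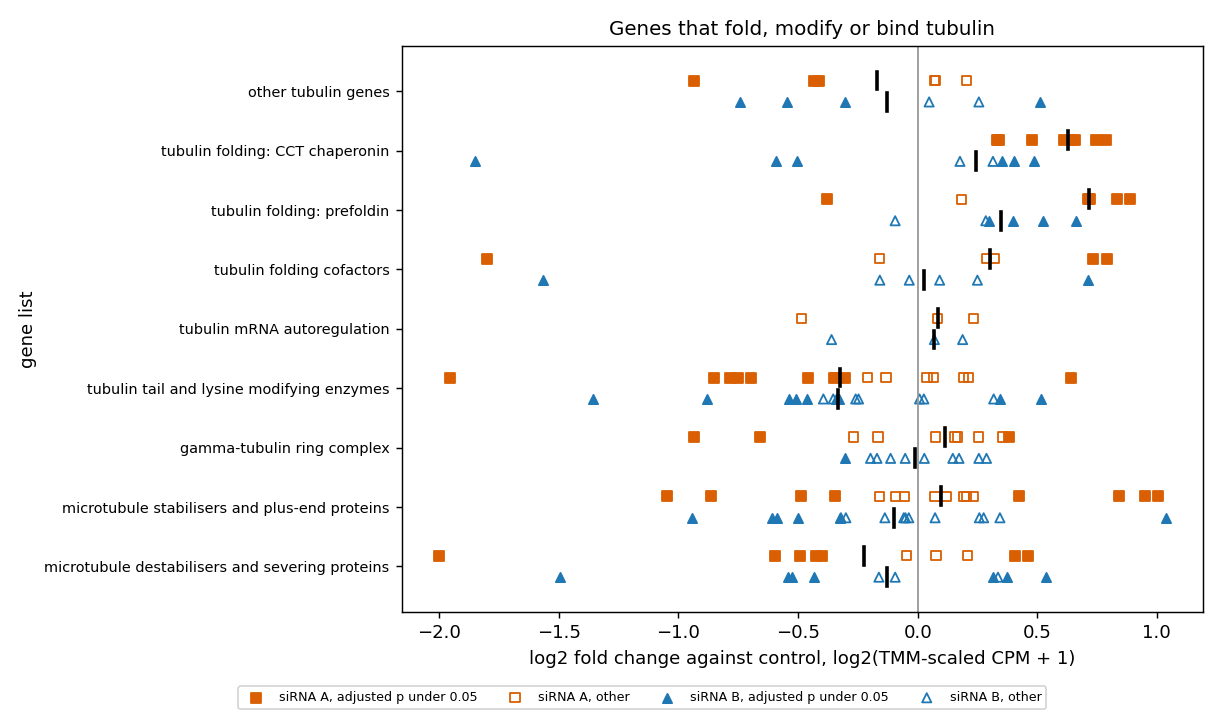
Log2 fold change against control (TMM-scaled) of each tested gene in 9 lists of tubulin-related genes, squares for siRNA A and triangles for siRNA B, filled where adjusted p is under 0.05, with a black bar at the list's median. All 8 CCT subunits lie to the right with siRNA A, where CCT3 turns to -0.03 with totals alone, and CCT3 lies far to the left with siRNA B (-1.85).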

How the data were processed

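The authors deposited CPM values (read counts scaled to a common library total) for 15354 Ensembl genes in 9 libraries described as biological replicates; 14871 identifiers matched a symbol. The submitters' processing notes name TopHat2, HTSeq and the GRCh37 (hg19) build; strand setting and handling of reads with several matches are not given in the sources used here. Every value (100%) came out as a whole number of reads (tolerance 0.01), and rows held 99.9% of the reads of each library.

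CPM were rescaled with TMM factors (edgeR 4.0.16) and tested as log2(CPM + 1) with limma 3.58.1 (trended variance, all 9 libraries, group means; R 4.3.3), for the 13893 genes (90.5%) at 1 CPM or more in at least 3 libraries, with Benjamini-Hochberg adjustment and a threshold of 0.05. Fold changes are on the log2(CPM + 1) scale, which understates changes of low genes. The edgeR quasi-likelihood test and DESeq2 on recovered reads, other scalings, filters and pseudocounts, a replicate block and leaving out each library were alternatives. The limma step was tested on simulated data. Deviations of same-numbered control and siRNA A libraries correlated over genes (r = 0.646, 0.411 and 0.13). The replicate block is therefore given beside an siRNA A result where it changed a call, and beside TTC5 and CAMSAP3 with siRNA B. All other values are from the fit without it. Replicate libraries differed by more than sampling noise. The limit of 3 reads covers counting error only; SD and SE are over libraries.

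Transcripts, coding sequences and windows of 50 bases came from GENCODE v44 on GRCh37. Members and lists were chosen with earlier results of these data known. Named are all 10 tubulins, SNHG5 and, from each list, the 3 members with the largest absolute change among those called in either comparison with control (all members of a list of 3), and the 3 genes most like the summed alpha and the summed beta level. A gene of the destabiliser list that this rule names and a coding sequence are not reported here. Protein sequences were not used here.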

Additional observations from a re-analysis of the deposited data

How the results depend on the processing

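The 27 tubulin fold changes were refitted under 16 alternatives, giving 432 values. Of these, 409 kept their side of the threshold, 5 newly passed, 17 no longer passed and 1 that had passed turned. The 409 include values that passed in neither fit and changed sign. With totals alone these were, for example, TUBA1A with siRNA B (0.08 to -0.12) and TUBB4B between both siRNAs (0.06 to -0.10). Scaling mattered most: with library totals alone 0 tubulins were higher with siRNA A, TUBA1C turned to -0.059 (adjusted p = 0.683), CCT3 with siRNA A to -0.029 (0.857) and CNOT11 with siRNA A to -0.28 (0.0393), limma throughout. Leaving out 1 library at a time, 2 to 4 tubulins were lower with siRNA A, 2 to 4 were lower with siRNA B, and 0 to 1 were lower in siRNA A than in siRNA B. The pseudocount of 0.1, no filter, the 2 groups alone, edgeR and the replicate block changed no tubulin call, and DESeq2 added TUBA1C between both siRNAs (0.26, adjusted p = 0.0307). With the replicate block 3 tubulins were higher and 4 lower with siRNA A, and 0 higher and 4 lower with siRNA B. The numbers of siRNA B libraries paired with neither control (r = 0.173, 0.445 and -0.386) nor siRNA A (r = 0.204, 0.442 and 0.019), where 3 of 6 libraries correlated best with their own number, so there the block rests on a shared number only. Totals alone also moved list counts against control, to 4 rising CCT subunits with siRNA A (8 with TMM) and 1 with siRNA B (3), 0 rising cofactors with siRNA A (2), 12 falling enzyme genes with siRNA A (8, against a background of 47% lower) and 11 with siRNA B (7, background 29.7%), 4 falling genes of the gamma-tubulin ring complex with either siRNA (2 and 1), and 7 and 8 falling stabilisers (4 and 5). It left 0 rising enzyme genes or destabilisers with either siRNA, 0 other tubulin genes rising with siRNA B (1), and 2 rising prefoldin subunits with siRNA B (4). Depth limits TUBB3, where 31 reads carry a counting error of 18.0%, and TUBB2A, where 88 reads carry 10.7%.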

Other observations

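The genes outside the family whose log2 level followed the summed alpha tubulin level most closely over the 9 libraries were TOMM34 (Pearson r = 0.987), GBX2 (0.983) and B4GAT1 (0.980), and for the summed beta level DHRS2 (0.976), PSMD8 (0.970) and SLC25A1 (0.968). These are descriptions over 9 libraries that fall into 3 groups, picked as the highest of all genes tested, and carry no test. The correlations were taken on TMM-scaled levels and depend on that scaling. As deposited, the summed beta level had a lower mean with siRNA A than in control (1080 against 1240 CPM per kb).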
